A study of Mus musculus with 12 samples.

Results

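The insulin, GLUT4 and mTOR signalling genes examined here are 36 named components of the pathway, taken by gene symbol from a count table of 27473 features. They are 2 receptors, 5 docking and adaptor proteins, 7 genes of the PI3K, Pdpk1 and Akt kinases, 5 genes of GLUT4 and its traffic, 5 Akt effectors, 4 inhibitors and 8 genes of the mTOR branch. Of the 36, 35 had counts and passed the filter on low counts in every comparison. Tsc2, which forms the brake on mTORC1 with Tsc1, was listed at 0 in every library and is given no value. Inppl1 had 2 features, of which the one with more counts was used, and the other averaged 2.56 CPM (counts scaled to a common library size).

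The libraries were made from 3T3-L1 adipocytes, fat cells grown from a mouse fibroblast line. Differentiation was induced with dexamethasone, IBMX and insulin, and on day 8 the mature cells of all 4 groups received lentivirus. Per the labels the virus stayed on for 2 days and cells were harvested 4 days after transduction, whereas the study's methods give a shorter contact. GFP and Dnmt3a cells carried the pCDH expression vector with GFP or with Dnmt3a, an enzyme that places new methyl groups on DNA at CpG sites. shScr cells carried a scrambled hairpin and shDnmt3a cells a hairpin against Dnmt3a, and neither the labels nor the methods say which Dnmt3a hairpin this was. Each group had 3 libraries of 29084732 to 47341091 counts. Whether replicate libraries were grown as separate cultures is not stated in the labels, so the p-values reflect library-to-library spread that may be purely technical.

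Insulin binds its receptor, a tyrosine kinase that phosphorylates the docking proteins Irs1 and Irs2, and these recruit phosphatidylinositol 3-kinase. The lipid it makes activates Akt, which in fat cells releases stored GLUT4 transporters to the cell surface, holds Foxo factors out of the nucleus, restrains the glycogen kinase Gsk3 and lipolysis, and relieves the Tsc1-Tsc2 brake on mTORC1. Much of this signal runs through phosphorylation, which RNA-seq does not measure, so the values below are transcript levels. In bulk RNA, fewer cells of a type and less RNA per cell cannot be told apart.

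Because Dnmt3a acts on CpG sites, and because no methylation was measured in these libraries, the promoters of members that the results turn on are shown as context for where such sites lie. RefSeq windows of 250 bases before the transcription start (GRCm38.p6, not the mm9 build of the counts) were found for 32 of the 36 members, 42 windows in all. They held a median of 19.5 CG dinucleotides, against 6 over 32851 windows of the same length. Those 32851 windows were not limited to expressed genes, whereas all members but Tsc2 had counts. A comparison with expressed genes alone was not made. Igf1r, Foxo1 and Gsk3b were called lower with Dnmt3a and higher with its hairpin, Rheb was called the other way round, and Irs2 was called in neither. They are printed 5′ to 3′ along the gene with CG in capitals. Igf1r lies at chr7:67952007-67952256 on the + strand, Foxo1 at chr3:52268087-52268336 (+), Gsk3b at chr16:38088751-38089000 (+), Rheb at chr5:24842362-24842611 (-) and Irs2 at chr8:11008930-11009179 (-).
Igf1r: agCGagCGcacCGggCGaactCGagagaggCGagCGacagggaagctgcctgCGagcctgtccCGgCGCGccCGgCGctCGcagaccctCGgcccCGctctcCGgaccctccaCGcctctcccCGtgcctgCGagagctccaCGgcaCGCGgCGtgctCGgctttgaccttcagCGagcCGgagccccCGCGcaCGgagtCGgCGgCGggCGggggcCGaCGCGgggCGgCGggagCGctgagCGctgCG
Foxo1: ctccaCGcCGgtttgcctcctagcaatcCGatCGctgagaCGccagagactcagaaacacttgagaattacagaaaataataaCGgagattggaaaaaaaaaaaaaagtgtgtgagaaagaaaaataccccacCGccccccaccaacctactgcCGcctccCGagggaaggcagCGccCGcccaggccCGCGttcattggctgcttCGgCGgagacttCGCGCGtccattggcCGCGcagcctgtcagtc
Gsk3b: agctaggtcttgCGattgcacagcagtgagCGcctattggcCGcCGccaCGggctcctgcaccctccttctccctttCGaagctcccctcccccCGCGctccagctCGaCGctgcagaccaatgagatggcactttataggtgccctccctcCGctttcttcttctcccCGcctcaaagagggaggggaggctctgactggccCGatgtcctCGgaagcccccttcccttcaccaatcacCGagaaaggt
Rheb: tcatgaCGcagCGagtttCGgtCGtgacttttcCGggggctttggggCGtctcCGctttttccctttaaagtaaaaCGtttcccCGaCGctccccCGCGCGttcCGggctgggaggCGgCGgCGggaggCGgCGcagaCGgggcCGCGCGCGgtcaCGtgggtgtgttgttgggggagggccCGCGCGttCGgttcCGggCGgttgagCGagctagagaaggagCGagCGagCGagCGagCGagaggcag
Irs2: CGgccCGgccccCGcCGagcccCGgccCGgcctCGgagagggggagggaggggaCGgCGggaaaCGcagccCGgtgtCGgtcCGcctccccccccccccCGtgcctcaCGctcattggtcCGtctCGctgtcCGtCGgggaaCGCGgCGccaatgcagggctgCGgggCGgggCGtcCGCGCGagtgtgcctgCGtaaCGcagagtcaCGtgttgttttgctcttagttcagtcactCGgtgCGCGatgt

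These windows held 42 CG dinucleotides for Igf1r, 20 for Foxo1, 15 for Gsk3b, 37 for Rheb and 34 for Irs2. Of the other members called in opposite directions, Shc1 had windows with 12 and 4, Pik3r1 with 6 and 30, and Akt2 with 10, 0, 5 and 2. No window was found for Eif4ebp1. Over the 42 windows of members the count ran from 0 to 42. The promoter of Socs3, the member with the largest change on knock-down and a gene that STAT factors induce, was searched on both strands for the STAT motif TTCNNNGAA. That motif is its own reverse complement, and was present in 7.02% of all windows and in 4 of the 42 windows of members. Socs3 had 1 match, TTCTTAGAA, whose first base lies 154 bases before the start, shown in capitals in the window at chr11:117969367-117969616 (-). ACGTG, the core of many E-box and hypoxia-response sites, was present in 16.6% of all windows and 7 of 42, and TGTTTAC, a Foxo-type motif, in 3.17% and 1 of 42. Both were searched on both strands, and a match is a string of letters, not a shown site.
Socs3: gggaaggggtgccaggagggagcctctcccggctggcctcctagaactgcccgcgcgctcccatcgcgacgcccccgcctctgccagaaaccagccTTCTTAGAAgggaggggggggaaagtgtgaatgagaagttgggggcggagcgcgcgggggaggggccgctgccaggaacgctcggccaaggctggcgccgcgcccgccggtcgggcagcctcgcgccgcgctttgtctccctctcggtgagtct

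In the GFP libraries the members spanned a wide range of transcript levels per length of feature. Eif4ebp1, the translation repressor that mTORC1 inactivates, was highest at 191 ± 2.55 CPM per kb (SD, n = 3), followed by the kinase Akt2 at 131 ± 3.75 and the adaptor Shc1 at 108 ± 4.28. These 3 did not overlap one another over the libraries. Rheb, the GTPase that switches on mTORC1, and Slc2a4, which encodes GLUT4, came next at 70.4 ± 3.96 and 68.4 ± 2.58, and their libraries overlapped. Akt2 stood above Akt1, at 60.9 ± 2.78 CPM per kb, Insr at 19 ± 0.446 above Igf1r at 2.74 ± 0.0879, and Irs1 at 39.0 ± 0.982 above Irs2 at 28.6 ± 2.90, each pair without overlap. From Pik3r1 at 18.5 down to Pdpk1 at 17.6 CPM per kb, each gene overlapped its neighbour in the order. The lowest were Igf1r, the PI3K subunit Pik3cb at 2.32 ± 0.0733 and the adaptor Grb14 at 1.41 ± 0.0958. Among all features with a count, the 35 members lay at the 49.8th to 98.7th percentile of level per length over the 12 libraries.

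**Figure D1:**
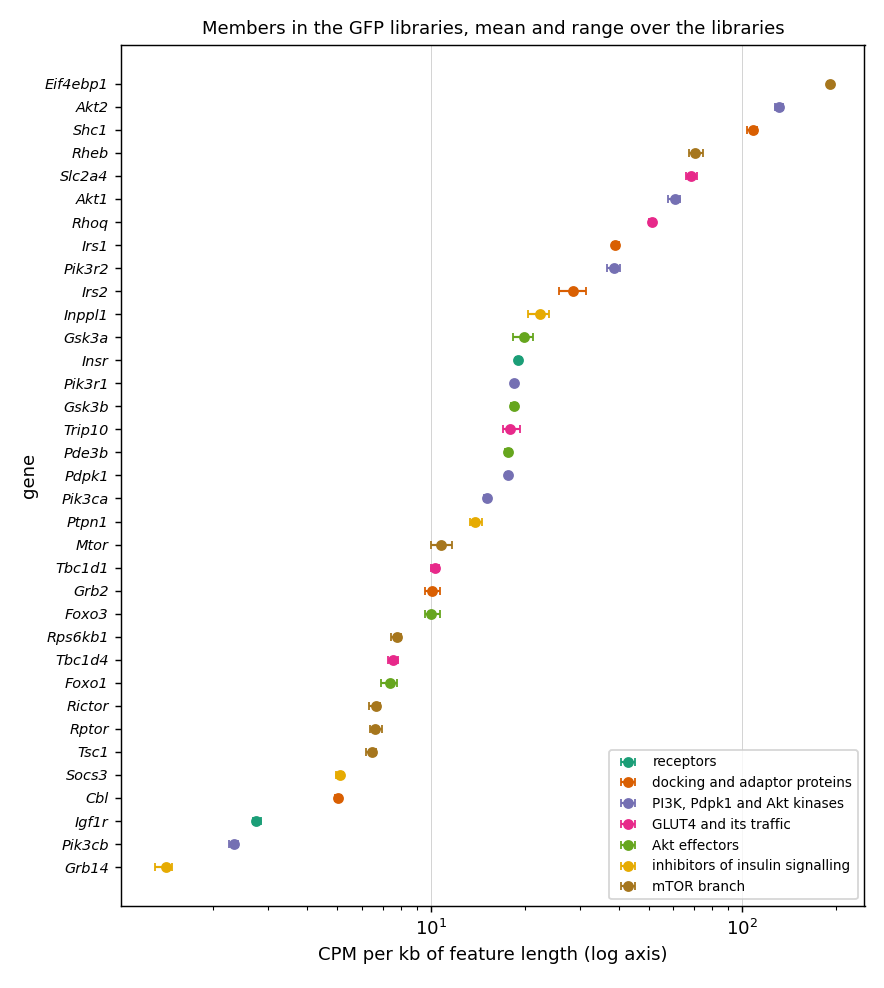
Transcript level of the 35 members with counts in the GFP libraries, in CPM per kb of feature length on a log axis, coloured by role; points are means and bars the range over 3 libraries. Levels run from 1.41 for Grb14 to 191 for Eif4ebp1.

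The targeted gene matched the labels. Dnmt3a stood at 93.2, 90.7 and 96.6 CPM in the GFP libraries and at 2743, 2776 and 2730 in the Dnmt3a libraries, and at 81.2, 86.3 and 78.5 in shScr against 41.0, 39.3 and 39.4 in shDnmt3a. Overexpression gave a log2 fold change of 4.88 (standard error 0.0412) with an adjusted p of 4.18e-43, and knock-down one of −1.04 (standard error 0.0462) with an adjusted p of 7.71e-13. Here and throughout, p-values come from the quasi-likelihood test of edgeR and are adjusted by the Benjamini-Hochberg method over all features tested. Of 10 adipocyte markers, 9 were called higher and none lower with Dnmt3a, and their summed level was 23686 to 25024 CPM in GFP, 29837 to 30076 in Dnmt3a, 20405 to 21372 in shScr and 19681 to 20314 in shDnmt3a. Lep, the adipocyte hormone leptin, was the marker under 1 CPM in every library. On knock-down 3 of these markers were called higher and 4 lower. Over all features, 14.3% were called higher and 12.9% lower with Dnmt3a, and 23.3% higher and 22.5% lower on knock-down. The 8 preadipocyte and fibroblast markers summed to 7411 to 7699 CPM in GFP, 7236 to 7918 in Dnmt3a, 8932 to 9550 in shScr and 13003 to 13047 in shDnmt3a. On knock-down the collagen genes Col1a1 and Col3a1 were called higher and 5 of the other markers lower. Most of this sum is Col3a1, which alone averaged 7588 CPM in shScr and 11593 in shDnmt3a. The 6 macrophage markers summed to at most 10.8 CPM with Emr1 at 0, the 4 skeletal muscle markers to at most 6.67 and the 4 endothelial markers to at most 2.08.

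With Dnmt3a overexpression 13 of the 35 members were called, 6 higher and 7 lower, and all by small amounts. The 6 that rose were Shc1, Pik3r2, Akt2, Slc2a4, Rheb and Eif4ebp1, and the 7 that fell were Igf1r, Pik3r1, Tbc1d1, Foxo1, Gsk3b, Ptpn1 and Tsc1. Their absolute log2 fold changes ran from 0.12 to 0.31 with a median of 0.16, and none reached 0.5. Over all 14168 features tested, 27.2% were called, 14.3% higher and 12.9% lower. The median absolute log2 fold change was 0.08 over the 35 members and 0.12 over all features. So 13 of 35 members were called against 27.2% of features, while the typical member differed less than the typical feature. The features were not matched to the members in level. How level bears on such contrasts, here or on knock-down, was not tested. Without GFP replicate 1 the members called lower were 4 in place of 7, Foxo1 (adjusted p = 0.0565), Ptpn1 and Tsc1 having lost the call.

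Knock-down moved more members. Of the 35, 23 were called, 13 higher and 10 lower, with absolute log2 fold changes of 0.10 to 0.85 and a median of 0.25. Socs3, Rhoq and Igf1r passed 0.5, and none passed 1. Over all 14115 features 45.8% were called, 23.3% higher and 22.5% lower, and the median absolute log2 fold change was 0.20 over the members against 0.19 over all features. The signed median was 0.08 over the members and 0.00 over all features. On overexpression these signed medians were 0.00 and −0.01.

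**Figure D2:**
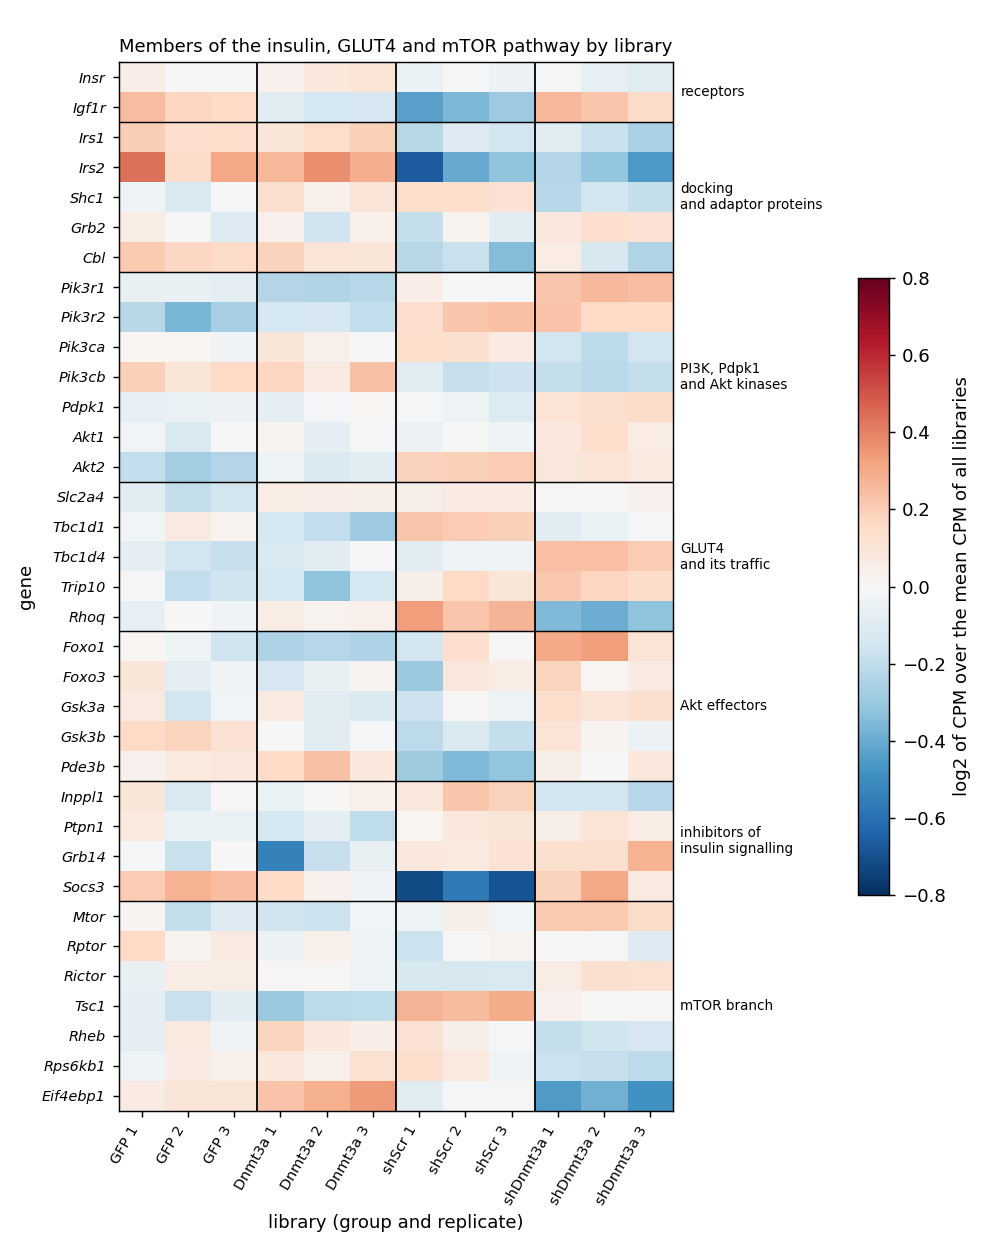
Level of each of the 35 members in each of the 12 libraries, as log2 of CPM over the mean of the 12, with genes in rows by role and libraries in columns by group; red is above the gene's mean and blue below. Igf1r and Socs3 are bluest in the 3 shScr libraries, Irs1 and Irs2 are red in the 6 pCDH libraries and blue in the 6 hairpin libraries, and Rhoq and Eif4ebp1 are bluest in the 3 shDnmt3a libraries.

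Both perturbations together gave 8 members called in opposite directions. Igf1r, Pik3r1, Foxo1 and Gsk3b were lower with Dnmt3a and higher with its hairpin, which 3.63% of the 13893 features tested in both comparisons did. Shc1, Akt2, Rheb and Eif4ebp1 were higher with Dnmt3a and lower with its hairpin, which 6.03% of features did. Tbc1d1 and Tsc1 were lower in both, as were 3.1% of features, and no member was higher in both, as were 3.64% of features. Called on knock-down and not on overexpression were 13 members, Pik3r2, Slc2a4 and Ptpn1 were called on overexpression and not on knock-down, and 9 were called in neither. These 9 were Insr, Irs1, Irs2, Cbl, Pik3cb, Trip10, Foxo3, Grb14 and Rptor.

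**Figure D3:**
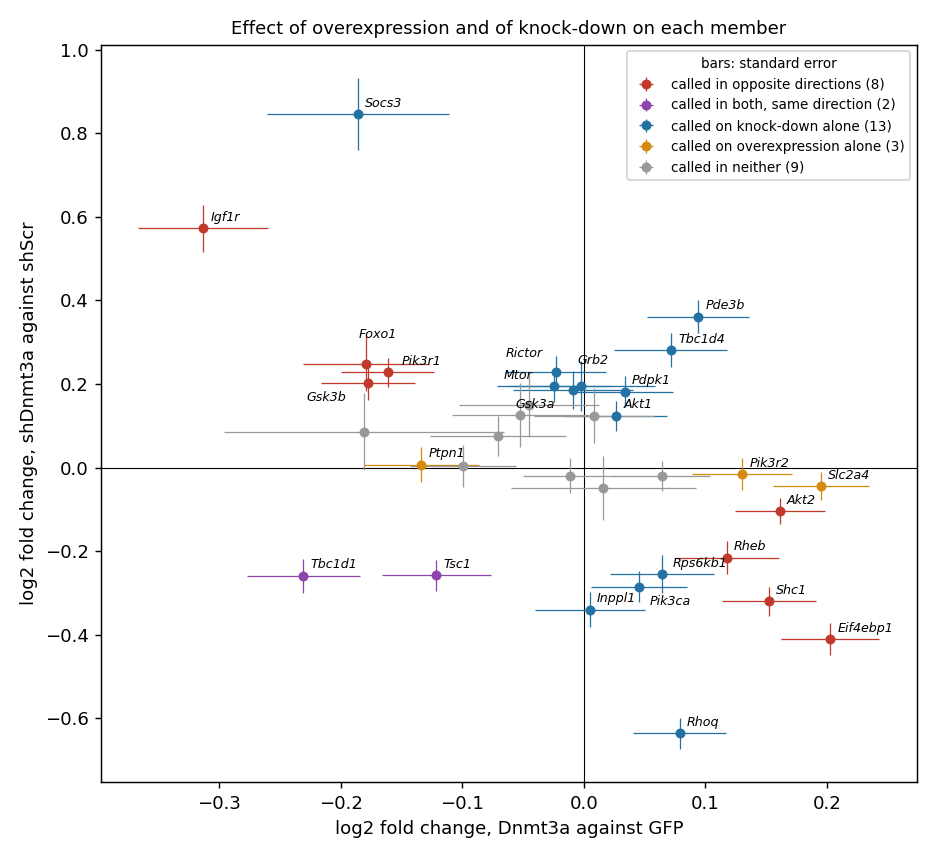
Log2 fold change of the 35 members on overexpression (x axis, Dnmt3a against GFP) and on knock-down (y axis, shDnmt3a against shScr), with standard errors as bars and the pattern of calls as colour; genes called in neither comparison are grey and unlabelled. Igf1r stands at −0.31 and 0.57, Eif4ebp1 at 0.20 and −0.41, Socs3 at −0.19 and 0.85 and Rhoq at 0.08 and −0.64.

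Of the receptors, the insulin receptor itself was not called and the related receptor for IGF-1 was called in both comparisons. Insr had 189.1, 181.5 and 181.8 CPM in GFP, 186.7, 192.8 and 196.3 in Dnmt3a, 175.3, 180.6 and 176.4 in shScr and 181.0, 173.9 and 170.3 in shDnmt3a. The groups overlapped in both comparisons, and the log2 fold change was 0.06 on overexpression (95% interval −0.02 to 0.14) and −0.02 on knock-down (−0.09 to 0.06). Igf1r had 36.5, 34.7 and 34.3 CPM in GFP, 28.9, 27.9 and 28.0 in Dnmt3a, 22.8, 24 and 25.1 in shScr and 36.9, 35.8 and 34.1 in shDnmt3a. Neither Dnmt3a nor shDnmt3a libraries overlapped their controls, while the shDnmt3a libraries overlapped the GFP libraries and shScr lay below all other groups. Its log2 fold change was −0.31 with Dnmt3a (standard error 0.0533, adjusted p = 2.09e-05) and 0.57 with the hairpin (standard error 0.0562, adjusted p = 8.11e-08). Between the control groups, shScr against GFP, it was −0.55 (adjusted p = 8.3e-10).

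The docking proteins Irs1 and Irs2 were not called in either comparison, and the adaptor Shc1, which links receptors to Ras signalling, was called in both. Irs1 had 367.9, 352.1 and 352.6 CPM in GFP, 341.9, 353.2 and 365.5 in Dnmt3a, 275.1, 298.0 and 288.3 in shScr and 299.2, 283.6 and 267.1 in shDnmt3a. Irs2 had 156.3, 127.5 and 142.8 CPM in GFP, 138.3, 149.2 and 140.7 in Dnmt3a, 72.7, 87.2 and 92.0 in shScr and 97.9, 92.7 and 83.7 in shDnmt3a. For both genes each perturbed group overlapped its control, and all 6 hairpin libraries lay below all 6 pCDH libraries. The log2 fold changes of Irs1 were −0.01 (95% interval −0.09 to 0.07) and −0.02 (−0.11 to 0.07), and those of Irs2 were 0.01 (−0.09 to 0.11) and 0.12 (−0.02 to 0.26, adjusted p = 0.139). Irs2 passed the test on knock-down with no filter on low counts and without shScr replicate 3 or shDnmt3a replicate 3 (adjusted p of 0.0209 to 0.0413).

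Shc1 had 407.9, 382.7 and 412.1 CPM in GFP, 455.7, 428.5 and 448.5 in Dnmt3a, 460.6, 459.1 and 451.0 in shScr and 356.0, 376.4 and 365.2 in shDnmt3a. Its perturbed and control libraries did not overlap in either comparison, and shDnmt3a was the lowest of the 4 groups. It rose by 0.15 with Dnmt3a (log2, standard error 0.0388, adjusted p = 0.00286) and fell by 0.32 with the hairpin (standard error 0.0338, adjusted p = 2.11e-07). Grb2, the adaptor that brings in the Ras exchange factor Sos, was called higher on knock-down (0.20, adjusted p = 0.0126), but not without shScr replicate 1 or shDnmt3a replicate 2 (up to 0.0675). Cbl, the ubiquitin ligase of the receptor complex, had 0.15 on knock-down (adjusted p = 0.114) and passed the test without shDnmt3a replicate 3 (0.0339).

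Among the kinases, the regulatory PI3K subunit Pik3r1 and the main Akt of fat cells, Akt2, were called in both comparisons and in opposite directions to each other. Pik3r1 had 174.0, 174.3 and 171.8 CPM in GFP, 154.6, 154.1 and 155.0 in Dnmt3a, 188.7, 181.6 and 180.7 in shScr and 212.3, 217.4 and 215.9 in shDnmt3a. The libraries within each group lay close together and no 2 groups overlapped. The log2 fold change was −0.16 with Dnmt3a (standard error 0.0385, adjusted p = 0.00151) and 0.23 with the hairpin (standard error 0.0347, adjusted p = 2.02e-05). Akt2 had 446.6, 421.9 and 434.9 CPM in GFP, 497.4, 473.7 and 482.3 in Dnmt3a, 582.1, 585.2 and 591.0 in shScr and 545.1, 549.9 and 539.9 in shDnmt3a. Its groups did not overlap either, and the distance between the control groups exceeded both effects. It rose by 0.16 with Dnmt3a (standard error 0.0372, adjusted p = 0.00107) and fell by 0.10 with the hairpin (standard error 0.031, adjusted p = 0.00911), while shScr against GFP was 0.44 (adjusted p = 5.01e-12).

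Akt1, the other Akt of these cells, rose by 0.12 on knock-down (adjusted p = 0.00778), a call lost without shDnmt3a replicate 2 (0.074), and had 0.03 on overexpression. Pdpk1, the kinase that phosphorylates the Akt activation loop, rose by 0.18 on knock-down (adjusted p = 0.000382). Pik3ca, a catalytic PI3K subunit, fell by 0.28 on knock-down (adjusted p = 2.71e-06), and the other catalytic subunit here, Pik3cb, was called in neither comparison. Pik3r2, the second regulatory subunit, rose by 0.13 with Dnmt3a (adjusted p = 0.0165), but lost the call without GFP replicate 2, Dnmt3a replicate 1 or Dnmt3a replicate 2 (up to 0.094). The Akt and PI3K genes are families of related sequence, and how reads matching several members were counted is not stated in the study's methods.

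**Figure D4:**
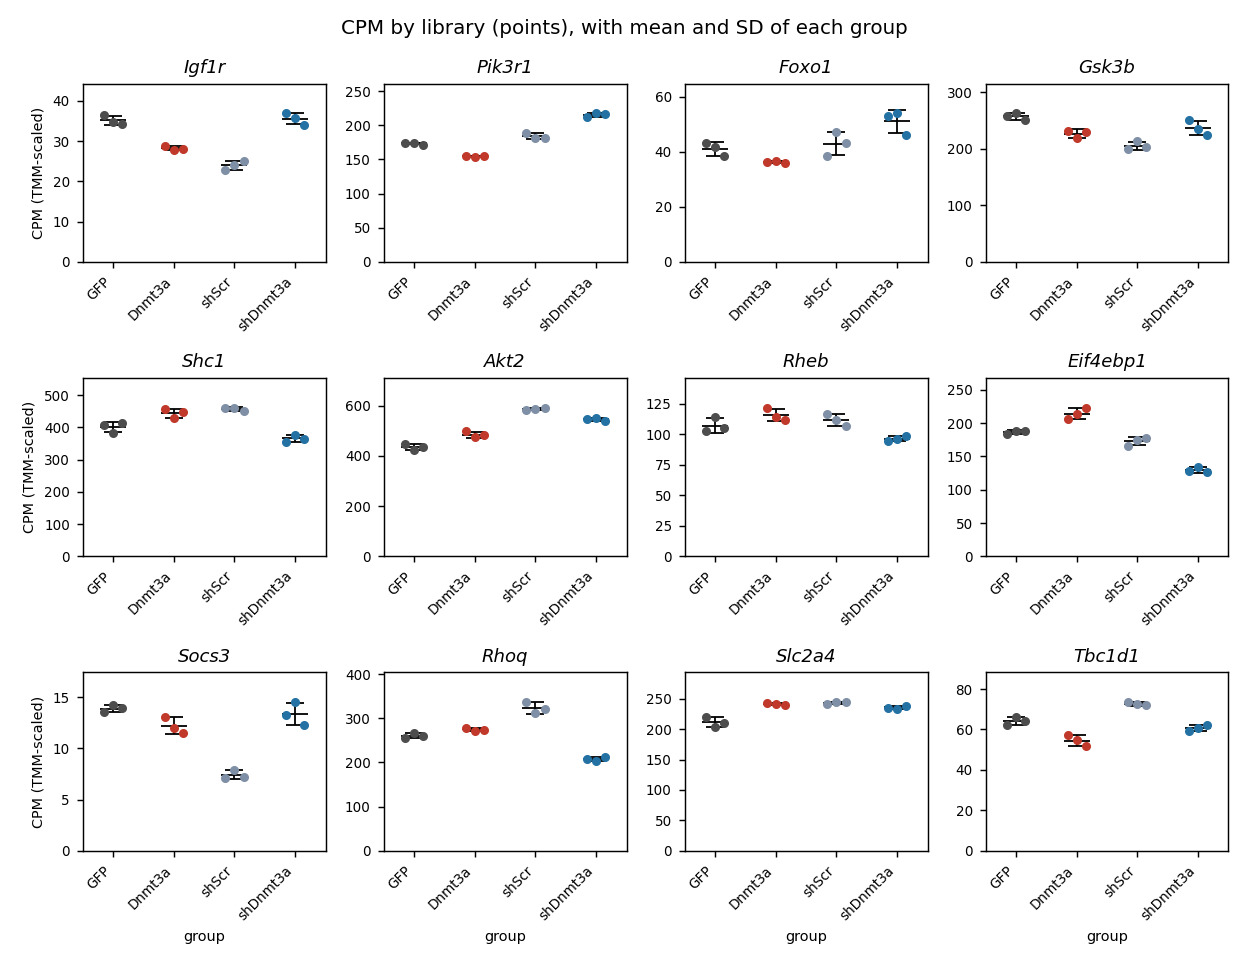
CPM in each library (points) with the mean and SD of the 3 libraries of each group, on axes that start at 0, for the 8 members called in opposite directions, then Socs3, Rhoq, Slc2a4 and Tbc1d1. Igf1r and Socs3 are lowest in shScr and stand at like levels in GFP and shDnmt3a.

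GLUT4 transcript rose with Dnmt3a and was not called on knock-down. Slc2a4 had 220.1, 204.3 and 210.3 CPM in GFP, 242.8, 241.4 and 240.4 in Dnmt3a, 240.8, 244.3 and 244.0 in shScr and 234.8, 233.6 and 238.6 in shDnmt3a. The GFP libraries were below all 9 others. The log2 fold change was 0.20 with Dnmt3a (standard error 0.0392, adjusted p = 0.000212), −0.04 with the hairpin (95% interval −0.11 to 0.03, adjusted p = 0.3) and 0.21 for shScr against GFP (adjusted p = 1.51e-05). The difference between the knock-down and the overexpression effect was −0.25 (adjusted p = 0.00016). The summed adipocyte markers moved with Slc2a4 on overexpression, from 23686 to 25024 CPM in GFP up to 29837 to 30076 in Dnmt3a. Between the controls the sum went down, to 20405 to 21372 CPM in shScr, where Slc2a4 was above GFP. The single markers were split there, with Adipoq, Retn and Cd36 called higher and 5 of the 10 lower. Over all features 23.7% were higher and 22.8% lower between the controls. The part of these markers in the rise of Slc2a4 was not tested.

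The regulators of GLUT4 traffic went different ways. Tbc1d1, a Rab GTPase-activating protein that holds GLUT4 vesicles back, had 62.1, 66.1 and 64.3 CPM in GFP, 57.1, 54.9 and 51.6 in Dnmt3a, 73.5, 72.4 and 72.0 in shScr and 59.1, 60.7 and 62.3 in shDnmt3a. Both perturbed groups lay below their controls without overlap, by 0.23 on the log2 scale with Dnmt3a (standard error 0.0461, adjusted p = 0.000202) and by 0.26 with the hairpin (standard error 0.0408, adjusted p = 3.24e-05). Its relative Tbc1d4, the Akt substrate of the same kind, rose by 0.28 on knock-down (standard error 0.0411, adjusted p = 1.33e-05) and had 0.07 on overexpression. Rhoq, the small GTPase TC10 of the Cbl arm of insulin signalling, had 255.4, 266.4 and 261.0 CPM in GFP, 277.4, 272.2 and 274.6 in Dnmt3a, 336.4, 311.1 and 322.0 in shScr and 208.5, 202.3 and 213.2 in shDnmt3a. The shDnmt3a libraries were the lowest of all 12 and the shScr libraries the highest. Rhoq fell by 0.64 on knock-down (standard error 0.037, adjusted p = 4.17e-11), the second largest change among members, and had 0.08 on overexpression (adjusted p = 0.124). It overlaps Pigf on the other strand in the NCBIM37 annotation (chr17:87362422-87399409), with whole gene spans compared, introns included. Whether counting used strand is not given, so reads from a shared stretch might be counted for either gene. The counts were made over transcripts edited to overlap less, and how much overlap this left is not known. In all, 13 members overlap a gene on the other strand and 8 overlap a protein-coding gene. Among the latter genes are Gm9747 for Irs1, Gm11016 for Pik3r1, 9130221H12Rik for Gsk3a and Angptl7 for Mtor. The same limit applies to these members, for reads of a shared stretch alone. Trip10, the TC10 effector CIP4, was called in neither comparison.

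Of the Akt effectors, 4 of 5 rose on knock-down and none fell, and with Dnmt3a Foxo1 and Gsk3b fell. Over all features 23.3% were higher and 22.5% lower on knock-down, and 12.9% lower with Dnmt3a, and a count out of 5 genes is too small to set this role apart. Foxo1, the transcription factor that Akt keeps out of the nucleus, had 43.2, 41.8 and 38.3 CPM in GFP, 36.1, 36.6 and 36.0 in Dnmt3a, 38.6, 47 and 43 in shScr and 52.8, 53.9 and 46.2 in shDnmt3a. The groups did not overlap on overexpression and overlapped on knock-down, where shDnmt3a replicate 3 lay below shScr replicate 2. Its log2 fold change was −0.18 (standard error 0.0519, adjusted p = 0.00851) and 0.25 (standard error 0.0665, adjusted p = 0.00446). Without GFP replicate 1 the first did not pass (0.0565). Gsk3b, the kinase that inhibits glycogen synthase, had 258.6, 262.9 and 251.6 CPM in GFP, 232.1, 218.8 and 230.7 in Dnmt3a, 200.5, 213.7 and 203.0 in shScr and 250.3, 235.5 and 224.7 in shDnmt3a. Neither comparison showed overlap, with −0.18 on overexpression (adjusted p = 0.000618) and 0.20 on knock-down (adjusted p = 0.000421). Its relative Gsk3a rose by 0.19 on knock-down (adjusted p = 0.0022). Pde3b, the phosphodiesterase through which insulin restrains lipolysis, rose by 0.36 on knock-down (standard error 0.0396, adjusted p = 3.49e-07). With Dnmt3a it had 0.09 (adjusted p = 0.0942), which passed the test without Dnmt3a replicate 3 (0.0343). Foxo3, a second Foxo factor, was called in neither.

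The 4 inhibitors of insulin signalling held the largest change of any member. Socs3, which blocks the receptor and marks Irs proteins for breakdown, had 13.5, 14.2 and 13.9 CPM in GFP, 13.1, 12 and 11.5 in Dnmt3a, 7.13, 7.93 and 7.25 in shScr and 13.3, 14.5 and 12.3 in shDnmt3a. The 3 shScr libraries stood apart below the other 9, and the shDnmt3a libraries overlapped the GFP libraries. Socs3 rose by 0.85 on knock-down (standard error 0.086, adjusted p = 1.29e-07), and was 0.89 below GFP in shScr on the log2 scale (adjusted p = 2.46e-10). With Dnmt3a its log2 fold change was −0.19 (standard error 0.075, adjusted p = 0.0622), which passed the test without Dnmt3a replicate 1 or with a filter of 1 CPM in 3 libraries (0.0384 to 0.0495). Inppl1, the lipid phosphatase SHIP2 that removes the PI3K product, fell by 0.34 on knock-down (standard error 0.0412, adjusted p = 1.32e-06) and had 0.00 on overexpression. It too overlaps a gene on the other strand, Phox2a. Ptpn1, the tyrosine phosphatase PTP1B that dephosphorylates the receptor, fell by 0.13 with Dnmt3a (adjusted p = 0.0325), a call lost with DESeq2 and without GFP replicate 1, Dnmt3a replicate 1 or Dnmt3a replicate 3 (up to 0.206). Grb14, an adaptor that binds and inhibits the receptor, was called in neither, with −0.18 on overexpression that became −0.05 without Dnmt3a replicate 1.

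In the mTOR branch the kinase and its mTORC2 partner rose on knock-down while Tsc1, the switch Rheb and the substrates Rps6kb1 and Eif4ebp1 fell. Mtor had 102.9, 88.5 and 94.2 CPM in GFP, 90.5, 89.9 and 99.5 in Dnmt3a, 98.3, 104.6 and 99.7 in shScr and 117.2, 117.2 and 112.1 in shDnmt3a. GFP and Dnmt3a libraries overlapped, and the shDnmt3a libraries were above all others. Mtor rose by 0.20 on knock-down (standard error 0.0382, adjusted p = 0.000315), and Rictor, the scaffold of mTORC2, by 0.23 (standard error 0.0363, adjusted p = 3.2e-05). Rptor, the scaffold of mTORC1, was called in neither, with −0.10 on overexpression (adjusted p = 0.0873) that passed without GFP replicate 2 (0.029) and 0.00 on knock-down.

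Rheb had 102.3, 113.8 and 105.0 CPM in GFP, 121.7, 114.1 and 111.6 in Dnmt3a, 116.8, 111.5 and 107.1 in shScr and 94.3, 96.4 and 98.2 in shDnmt3a. Dnmt3a replicate 3 lay below GFP replicate 2, and the hairpin groups did not overlap. It fell by 0.22 on knock-down (standard error 0.0395, adjusted p = 0.000162). With Dnmt3a it rose by 0.12 (standard error 0.0433, adjusted p = 0.04), but this call was lost with DESeq2 and without GFP replicate 1 or 3 or Dnmt3a replicate 1 or 2 (up to 0.242). Eif4ebp1 had 184.0, 188.4 and 188.2 CPM in GFP, 206.0, 214.1 and 223.1 in Dnmt3a, 165.8, 174.7 and 177.1 in shScr and 128.7, 134.6 and 126.0 in shDnmt3a. All 4 groups were apart from one another. It rose by 0.20 with Dnmt3a (standard error 0.0404, adjusted p = 0.000193) and fell by 0.41 with the hairpin (standard error 0.0389, adjusted p = 5.06e-08), and here shScr against GFP was smaller, at −0.11. Rps6kb1, the S6 kinase that mTORC1 activates, fell by 0.25 on knock-down (adjusted p = 0.000107), and overlaps Rnft1 on the other strand. Tsc1 fell by 0.26 on knock-down (adjusted p = 1.2e-05), and by 0.12 with Dnmt3a (adjusted p = 0.0417), the latter lost with DESeq2, with no filter on low counts and without GFP replicate 1 or 3 or Dnmt3a replicate 1 or 2 (up to 0.231).

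The control groups differed from each other in nearly as many members as the hairpin groups did. Between shScr and GFP, 22 of 35 members were called, 11 higher and 11 lower, where 46.5% of all 14491 features were called, 23.7% higher and 22.8% lower. Past an absolute log2 difference of 0.5 were Socs3 at −0.89, Irs2 at −0.76 (adjusted p = 1.46e-10) and Igf1r at −0.55. Irs1 was at −0.31 (adjusted p = 2.98e-07), Cbl at −0.42, Pde3b at −0.38 and Gsk3b at −0.32, whereas Pik3r2 was at 0.49, Akt2 at 0.44, Tsc1 at 0.39 and Rhoq at 0.32. Of these calls Rptor (−0.12, adjusted p = 0.0389) was lost without GFP replicate 1 or 3 or shScr replicate 1, with −0.06 without the latter. Pik3r1 (0.09, adjusted p = 0.0313) was lost without the same libraries and with no filter on low counts (up to 0.108), and Eif4ebp1 (−0.11, adjusted p = 0.0246) without GFP replicate 2 or 3 or shScr replicate 1 (up to 0.153). Mtor, Ptpn1 and Tbc1d4 were called without GFP replicate 1, and Rheb without GFP replicate 2. The insert, the vector and any difference between transductions moved together between these controls and cannot be told apart. This comparison shares its libraries with both others, so the values of a member are set side by side and not counted as separate evidence.

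The effects of knock-down and of overexpression were also set against each other in 1 fit of all 12 libraries. Their difference was called for 22 of 35 members, 11 positive and 11 negative, where 40.3% of features were called, 19.9% positive and 20.4% negative. It was largest for Socs3 at 1.02 on the log2 scale (standard error 0.111, adjusted p = 1.23e-08), then Igf1r at 0.88 (standard error 0.0746, adjusted p = 1.03e-10), Rhoq at −0.72 (adjusted p = 2.09e-12) and Eif4ebp1 at −0.62 (adjusted p = 3.13e-10). For the 8 members called in opposite directions a call here follows from how they were picked and adds nothing, and the smallest of their differences was that of Akt2, at −0.27. The difference was not called for Insr (−0.09, adjusted p = 0.166), Irs1 (−0.02, adjusted p = 0.859), Irs2 (0.11, adjusted p = 0.397) or Tbc1d1 (−0.04, adjusted p = 0.681). It was called for Tsc1 at −0.15 (adjusted p = 0.0476), but not under 14 alternatives, DESeq2 and RLE size factors among them. Leaving out single libraries also ended the calls of Gsk3a (up to 0.169), Pdpk1 (up to 0.122), Pik3r2 (up to 0.102) and Mtor (0.0651, without GFP replicate 1), and gave calls for Cbl without shDnmt3a replicate 3 and Grb2 without shScr replicate 2.

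A further 121 genes of the pathway were listed, of which 115 were in the table used here and 108 were tested. With Dnmt3a 20 were called higher and 16 lower, and on knock-down 37 higher and 29 lower. The shares over all features, against which these counts and those of each list below are to be read, were 14.3% higher and 12.9% lower with Dnmt3a and 23.3% higher and 22.5% lower on knock-down. The median absolute log2 fold change of these 108 was 0.10 on overexpression and 0.18 on knock-down, against 0.12 and 0.19 over all features. Of 13 genes near the receptor, 2 were higher and 2 lower with Dnmt3a, and 4 higher and 3 lower on knock-down. Dok1, a docking protein, had −0.17 with Dnmt3a, Sh2b2, an adaptor, 0.13, and on knock-down the docking protein Gab2 had 0.41 and the IGF-2 receptor Igf2r −0.21. Of 13 other PI3K and Akt genes, Pik3cd, Phlpp2 and Sgk1 were lower with Dnmt3a and none higher, while on knock-down 4 were higher and 3 lower. Pik3cd, the PI3K subunit best known from white blood cells, stood near 1 CPM and had −0.99 (adjusted p = 0.00202), and the Akt-related kinase Sgk1 had −0.22 with Dnmt3a and −0.21 on knock-down. The inositol phosphatase Inpp5k had −0.17 on knock-down.

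Of 22 genes of the GLUT4 vesicle and its exocytosis, 6 were higher and 3 lower with Dnmt3a, and 5 higher and 10 lower on knock-down, beside 14.3% and 12.9% of all features with Dnmt3a and 23.3% and 22.5% on knock-down. Sort1, the sorting receptor sortilin that helps to form GLUT4 vesicles, had 497.5, 484.2 and 504.7 CPM in GFP, 654.8, 626.9 and 672.9 in Dnmt3a, 488.0, 495.2 and 478.3 in shScr and 453.1, 457.0 and 441.4 in shDnmt3a. The Dnmt3a libraries stood above all others, with a log2 fold change of 0.40 (adjusted p = 2.52e-10), and the membrane-shaping protein Ehd2 had 0.16. On knock-down Ralgapa2, a subunit of the Ral GTPase-activating complex that Akt phosphorylates, had −0.52 (adjusted p = 2.2e-10), and the vesicle protein Vamp3 0.48 (adjusted p = 1.28e-09).

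The 27 further genes of mTORC1 and mTORC2 gave 6 higher and 2 lower with Dnmt3a, and 6 higher and 6 lower on knock-down. Ddit4, the REDD1 protein that restrains mTORC1 under stress, had 28.1, 29.8 and 28.6 CPM in GFP, 29.4, 31.4 and 28.6 in Dnmt3a, 27.5, 31.9 and 31.8 in shScr and 86.1, 79.2 and 78.0 in shDnmt3a. The shDnmt3a libraries stood apart from 9 others at like levels, and Ddit4 rose by 1.42 (adjusted p = 1.74e-13). Rragc, a Rag GTPase that brings mTORC1 to the lysosome, had −0.40 on knock-down. With Dnmt3a the Ragulator subunits Lamtor1 and Lamtor4 (2400001E08Rik and 0910001L09Rik in the table) had 0.25 and 0.27.

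Of 12 further inhibitors, none was higher and 4 were lower with Dnmt3a (Socs2, Ptpn2, Trib1 and Trib3), and 6 were higher and 2 lower on knock-down (Trib3 and Prkce lower). Over all features 14.3% were higher with Dnmt3a, so few of 12 genes would be called higher at that share, and 12.9% were lower, with 23.3% and 22.5% on knock-down. Trib3, a pseudokinase that binds Akt, had −0.32 with Dnmt3a and −0.68 on knock-down, and its relative Trib1 −0.60 with Dnmt3a. Grb10, an adaptor that inhibits the receptor, had 0.974, 1.08 and 0.647 CPM in shScr and 2.06, 2.12 and 1.89 in shDnmt3a, a log2 fold change of 1.15 (adjusted p = 8.92e-05). The tyrosine phosphatase Ptpre had 1.46, 1.55 and 0.777 CPM in shScr and 2.81, 3.13 and 3.41 in shDnmt3a, a log2 fold change of 1.28.

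Genes that the pathway is known to switch were called in both directions. Of 12 known targets of Foxo factors, 5 were higher and 2 lower with Dnmt3a, and 7 higher and 2 lower on knock-down. Gadd45a, a stress gene, fell in both comparisons, by 0.24 and 0.78, and the lipase gene Pnpla2 rose by 0.21 with Dnmt3a. The transcriptional regulator Cited2 rose by 0.78 on knock-down. Its mean was 24.4 CPM in shScr and 41.7 in shDnmt3a, beside 42.7 in GFP. Of 9 lipogenic and insulin-induced genes, Scd2, a fatty acid desaturase, was higher with Dnmt3a (0.13) and none was lower, and 5 were higher and 3 lower on knock-down. Elovl6, a fatty acid elongase, had −1.16 on knock-down (adjusted p = 2.68e-12), from 64.2 to 74.7 CPM in shScr to 29.5 to 32.0 in shDnmt3a, and 45.4 to 49.9 in GFP. Hk2, the hexokinase of insulin-responsive tissues, had 0.76.

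**Figure D5:**
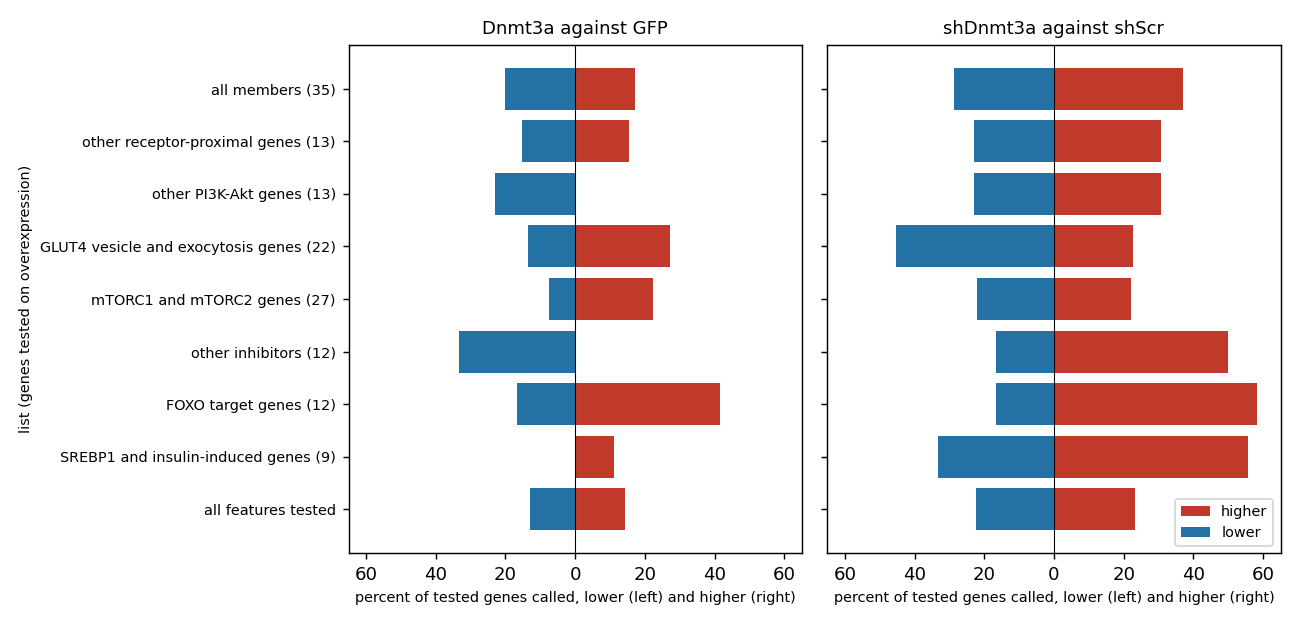
Percent of tested genes called higher (red, right) and lower (blue, left) on overexpression and on knock-down, for the members, 7 lists of further pathway genes and all features tested, with the number of genes tested in brackets. Members were called in both directions in both comparisons, and both the 13 other PI3K-Akt genes and the 12 further inhibitors had none called higher with Dnmt3a.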

How the data were processed

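RNA-seq of 12 libraries (GFP, Dnmt3a, shScr and shDnmt3a, 3 each) was analysed. The authors depleted ribosomal RNA, ran TopHat2 (2.0.14) against mm9 and counted reads with featureCounts (1.4.6) over transcripts edited to overlap less, per the methods of the paper and notes of the submitters. Their deposited table holds raw whole-number counts for each feature, and 7094 of 27473 features have none. Groups were taken from the labels.

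After TMM scaling, counts were tested by the quasi-likelihood method of edgeR (4.0.16, in R 4.3.3) with its default filter (minimum count 10), in 1 fit for Dnmt3a against GFP, another for shDnmt3a against shScr, and 1 fit of all 12 libraries for shScr against GFP and for the difference of the effects. A gene was called at a Benjamini-Hochberg adjusted p under 0.05 over all features tested. The biological coefficient of variation was 3.98% and 4.03% in the first and second fit, and replicates differed by more than sampling noise (chi-square per degree of freedom 2.5 to 10.4). The procedure was tested on simulated data, drawn with levels and spread estimated from these libraries. Such data cannot show whether that spread is purely technical.

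The members and lists were chosen with earlier results of these data known. Every member is named. Values per library are given for members called with a log2 fold change past 0.5 in size or in opposite directions, for Insr, Irs1, Irs2, Akt2, Slc2a4, Foxo1 and Mtor, and, chosen after their values were seen, for Tbc1d1 and a few genes of the further lists. Each further list is represented by its 2 genes of smallest p in each comparison and any called gene past 1 in size, and other genes of small counts were named after their values were seen. A result that this rule would name is not reported here. Rab10, Mlst8, Nprl3, Tfeb, Pid1 and Srebf1 were not analysed here. The alternatives were DESeq2 (1.42.0), RLE size factors, a replicate block, 1 fit of all libraries, no filter, a filter of 1 CPM in 3 libraries, summed features, an adjusted p under 0.01 and leaving out each library.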

Additional observations from a re-analysis of the deposited data

How the results depend on the processing

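No member that was called changed direction under any alternative. On overexpression the members called lower were 4 without GFP replicate 1, in place of 7. Leaving out each library in turn gave 4 to 7 members called higher and 4 to 8 lower on overexpression (9 to 13 in all), 11 to 15 higher and 10 to 10 lower on knock-down (21 to 25 in all), 10 to 13 higher and 9 to 11 lower for shScr against GFP (19 to 23 in all), and 9 to 12 positive and 9 to 11 negative for the difference of the effects (18 to 22 in all). Between each perturbed group and its control, samples with the same replicate number did not visibly deviate together. Their correlations were −0.0478 to 0.0103, against −0.04 to 0.0492 for other numbers. The labels give no pairing, and so few correlations cannot settle whether there was any. With a replicate block the overexpression fit called 13 members and the knock-down fit 23, as without it, and the counts were 20 for shScr against GFP and 19 for the difference, with Pik3r1 and Rptor lost in the first of these and Gsk3a, Pdpk1 and Tsc1 in the second. An adjusted p under 0.01 removed Pik3r2, Ptpn1, Rheb and Tsc1 on overexpression and Grb2 on knock-down. The cause of these changes was not tested. At depths of 29084732 to 47341091 counts per library the widest standard error of a member on overexpression was 0.115, for Grb14, the member with the lowest level.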
